A study of Saccharomyces cerevisiae with 10 samples.

Results

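Of the 10 arrays of this yeast series, the 4 with the title letters E and G are described here against the 6 with the letters A, B and C. Each letter marks an experiment of 1 wild-type and 1 edc3 deletion array. The 4 arrays were picked because the signals themselves had set them apart: the first principal component over all tested probe sets held 53.2% of the variance, and on it the E and G arrays scored from 18.2 to 21.3 while A to C scored from -19.5 to -8.1. Any difference between these groups of arrays is therefore a description of what the split consists of, and no p-value is attached to it. Both strains are Saccharomyces cerevisiae: the wild type is HFY114, and the deletion strain lacks EDC3, which encodes an enhancer of mRNA decapping, and is named CFY25 on its sample labels but SYY14 in the design text. Every culture was grown in the rich medium YEPD at 30 °C without treatment, RNA came from a hot phenol extraction, and 6 µg of total RNA was labelled with biotin for an Affymetrix Yeast Genome S98 array. The labels call all arrays of a strain biological replicates and give no culture density, growth phase or harvest time.

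A budding yeast culture in rich glucose medium first grows fast by fermentation and then slows as glucose runs out. Fast growth goes with high expression of the genes that build ribosomes, above all the nucleolar factors that cut, modify and fold ribosomal RNA. Slowing or stressed cells lower that programme and raise another, which covers heat-shock proteins, antioxidant enzymes, the storage carbohydrates trehalose and glycogen, respiration and the use of carbon sources other than glucose. The transcription factors Msn2 and Msn4 drive much of the second programme, Hap4 the respiratory part of it, and protein kinase A opposes it when glucose is plentiful.

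In both strains, experiments E and G had higher signals for ribosome biogenesis genes and lower signals for stress, storage carbohydrate and respiratory genes than experiments A to C. The median log2 difference of 128 ribosome biogenesis genes was 0.38, that of 19 trehalose and glycogen genes was -0.70 and that of 53 genes of the environmental stress response was -0.76, against -0.09 for all 5058 genes. PGM2, GPH1, GSY1, GDB1, TSL1, GSY2, GLC3, TPS2, TPS1 and NTH1 are in both the storage list and the stress list, so these medians are not independent. Single genes differed by more: both probe sets of PRM7, a pheromone-regulated membrane protein gene, were higher, the brighter one 17.6-fold, and RGI1, a gene of respiratory growth, was 5.37-fold lower.

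The value of a probe set is its MAS5 signal, an intensity on a linear scale. Of 9275 probe sets without the array controls, the 6492 brightest were kept (mean signal of 16.8 or more), of which 5413 are paired with 1 gene and stand for 5058 genes. A difference is the mean log2 signal of E and G minus that of A to C, taken within each strain and averaged over the strains. Its error is the SD over experiments A, B and C of the log2 signal averaged over the strains (n = 3). A probe set is called separated where, in both strains, the E and the G array both lie above, or both below, all of A, B and C of that strain and the averaged difference is at least 2-fold.

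The libraries matched their labels: EDC3 read 456.8 to 480.5 in the 5 wild-type arrays and 0.1 to 2.3 in the 5 deletion arrays. Of 7 marker genes of a-type haploid cells, 6 passed the filter and ASG7 did not, with the pheromone gene MFA2 at 2246.8 to 3554 and the alpha-factor receptor gene STE2 at 337.1 to 489.3, while the alpha-cell receptor gene STE3 stayed at 2.5 to 17.5 and the alpha-agglutinin gene SAG1 read 65.7 to 108.8. Instrument records exist for 8 arrays: A and B were scanned in 2 scans at a pixel size of 3 µm, E in 1 scan at 2.5 µm with no chip lot given, the fields of C are blank and G has no record. The scanner setting and the culture cannot be told apart. Of 4 biotinylated hybridisation controls, 2 were lower in E and G, BioB-3 at 47.1 to 52.7 against 62.1 to 82 and BioC-3 at 208.4 to 221.5 against 277.2 to 321.7. The other two overlapped, BioDn-3 at 1380 to 1546.5 against 1498 to 2044.9 and CreX-3 at 1908.9 to 2067.7 against 1883.5 to 2446.4. The log2 ratio of 3′ to 5′ control signal, a measure of RNA length, was 3.22 to 4.40 against 2.39 to 3.50 for SRB4, 2.28 to 2.57 against 2.11 to 2.41 for SPT15 and 0.66 to 0.99 against 0.60 to 0.92 for ACT1. The part of these in the differences below was not tested.

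In all, 41 probe sets were separated upwards (0.632% of those tested) and 102 downwards (1.57%). Since the split was chosen on these signals, nothing is read from the size of these shares. The 41 stand for 29 genes plus 10 probe sets paired with no single gene, and the 102 for 86 genes plus 16 such probe sets. The split between the directions depends on the scaling of the arrays: after quantile normalization 63 were higher and 75 lower, and after centring each array on its median 64 were higher and 77 lower. Requiring 2-fold in each strain left 26 higher and 57 lower.

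PRM7 gave the largest difference of all. Its brighter probe set read 34.9, 48.9 and 73.4 as the lowest, median and highest of A to C, and 758.7 and 893.4 in wild-type E and G and 909.4 and 917.3 in the deletion strain's E and G. The groups lie far apart, with a log2 difference of 4.14 ± 0.21 (SD, n = 3). The dimmer PRM7 probe set read 17.1 to 19.6 in A to C and 331.1 to 374.2 in E and G, a log2 difference of 4.24 ± 0.06. Other pheromone-response genes lay on both sides: the list of 21 haploid-specific and pheromone-response genes had a median of 0.01, with 3 members above and 4 below without overlap. These shares lie near the 11.8% and 23.4% of all genes. FUS1, a cell-fusion gene induced by pheromone, differed by 0.59 ± 0.21.

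Several of the other genes that led the higher group act on ribosomes or RNA. RSA4, a factor of large ribosomal subunit assembly, read 79.1 to 156.2 in A to C and 339.2 to 366.9 in E and G, a log2 difference of 1.55 ± 0.30. SRO9, an RNA-binding protein gene whose product associates with translating ribosomes, read 107.9 to 165.5 in A to C and 408.9, 417.2, 474.9 and 532 in E and G, 3.4-fold higher. No E or G value of either gene came near the A to C range. GFD2, the neighbour of SRO9 on chromosome III, was 2.19-fold higher, at 711.5 to 819.2 against 276.1 to 411.4. The 5S ribosomal RNA probe sets named RDN5-1 and RDN5-3 were 4.23-fold and 3.88-fold higher. RDN5-3 read 42.9 to 72.6 in A to C and 180.8 to 210.3 in E and G. The 5S genes are near-identical repeats, so these signals cannot be assigned to 1 copy. DBP2, an RNA helicase gene named after its values were seen, has a pair of probe sets that differ in size: the brighter read 750.1 to 1011.4 in A to C and 1483 to 1589.3 in E and G, a log2 difference of 0.75 ± 0.14, and the dimmer 364.7 to 441.7 against 765.9 to 910.1, a difference of 1.07 ± 0.07. Only the dimmer is separated, and the brighter stands for the gene in the lists.

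The transport gene AQR1 and the arginine synthesis genes CPA1 and ARG3 were also in the higher group. AQR1, a plasma membrane exporter gene of the major facilitator family, read 20.9 to 47.2 in A to C and 116.5 to 131.1 in E and G, 4.16-fold higher. CPA1, the small subunit of the carbamoyl phosphate synthetase of arginine synthesis, read 309.1 to 562.8 against 776.6 to 932.7, a log2 difference of 1.05 ± 0.09. ARG3, the ornithine carbamoyltransferase gene of the same pathway, read 24.3 to 47.1 against 72.4 to 93.4, a difference of 1.17 ± 0.20. The arginine genes ARG8 (0.69) and ARG1 (0.66) were above A to C by less, while ARG4 (-0.02) and ARG7 (-0.10) overlapped. The 64 genes of amino acid synthesis regulated by Gcn4 had a median of 0.07 against -0.09 for all genes, with 15 above without overlap (23.4%, against 11.8% of all genes) and 4 below (6.25%, against 23.4%). The remaining leaders were the uncharacterised gene YOR338W (3.21-fold), the cyclin-like gene CLG1 (2.77-fold), SOK1, a gene that in excess makes up for loss of protein kinase A, (2.71-fold), YGR079W (2.45-fold) and YBR238C (2.15-fold), each without overlap in either strain.

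For a few genes, experiment B alone widened the difference. PTK1, a kinase gene of polyamine uptake, read 60.9 and 43.2 in experiment B but 143.6 to 215.3 in A and C, against 212.6 to 258.9 in E and G, so that its difference of 1.03 carries an SD of 1.00. YIH1, an inhibitor of the kinase Gcn2, behaved alike, with 105.4 and 88.6 in B, 196.5 to 226.6 in A and C and 326.3 to 351.7 in E and G. Without experiment B the PTK1 difference was 0.46 and the YIH1 difference 0.69.

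**Figure D1:**
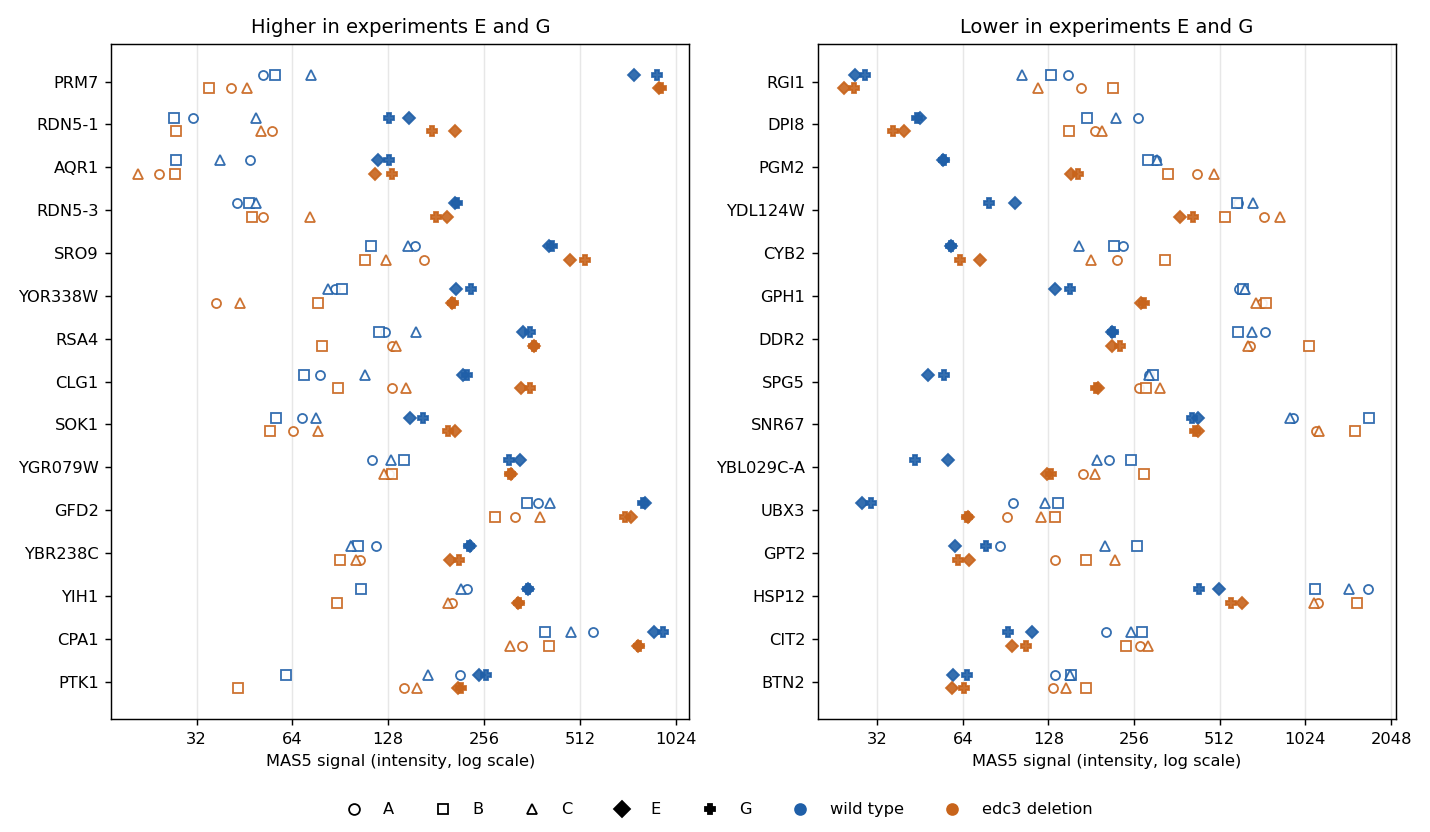
MAS5 signal on a log axis in each of the 10 arrays for the 15 named genes with the largest higher (left) and lower (right) log2 difference; open symbols are experiments A, B and C, filled symbols E and G, blue the wild type and orange the edc3 deletion. Filled and open symbols of the same colour do not overlap in any row, as the choice of genes requires; PTK1 and YIH1 show the low experiment B arrays (squares), and PGM2, YDL124W, SPG5, YBL029C-A and UBX3 show lower filled symbols in the wild type than in the deletion.

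Of the 15 lower leaders, RGI1, CYB2, GPH1, PGM2 and CIT2 act in respiration, carbohydrate storage or the glyoxylate cycle. RGI1 read 103.5, 141 and 215.9 as the lowest, median and highest of A to C and 24.5, 26.5, 26.8 and 28.9 in E and G, a log2 difference of -2.42 ± 0.33. CYB2, which encodes the mitochondrial L-lactate dehydrogenase (cytochrome b2), read 164.5 to 328 in A to C and 58.1 to 73.6 in E and G, a difference of -1.80 ± 0.32 with the same value in each strain. GPH1, the glycogen phosphorylase gene, read 596.9 to 746.2 against 135.2, 152.3, 270.6 and 277.8, a difference of -1.74 ± 0.03. The GPH1 signals of E and G were lowest in the wild type, where the difference was -2.10, against -1.39 in the deletion strain. PGM2, the main phosphoglucomutase, showed the same order with -2.46 in the wild type and -1.38 in the deletion strain. CIT2, the peroxisomal citrate synthase of the glyoxylate cycle, read 203.9 to 285.3 against 92.3 to 111.6 and differed by -1.31 ± 0.10.

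Stress-response genes stood beside them. DDR2, a gene induced by many stresses, read 593.1, 661 and 1053.3 as the lowest, median and highest of A to C and 213.3, 214.3, 215.1 and 228.3 in E and G. The 4 lower values lie close together, and the log2 difference was -1.71 ± 0.14. HSP12, a small membrane-associated stress protein gene, read 1098.8 to 1698.5 against 431.4 to 611.5, a difference of -1.33 ± 0.07. BTN2, whose product gathers misfolded proteins, read 133 to 174 against 58.4 to 66.1, a difference of -1.26 ± 0.14. Among the leaders of other function, DPI8 was 4.75-fold lower, SNR67, a small nucleolar RNA that guides methylation of ribosomal RNA, read 906.1 to 1718.9 against 409.2 to 430.9, and GPT2, a glycerol-3-phosphate acyltransferase gene, differed by -1.35 ± 0.56. TMA10, which its low signals kept out of the named genes and which is given here after its values were seen, had the largest lower difference of all separated probe sets: 47.9 to 84.3 against 4.2 to 9.8.

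Of the 15 lower leaders, 5 had a difference over 1 log2 unit larger in the wild type than in the deletion strain. SPG5, a gene needed for survival in stationary phase, had differences of -2.51 and -0.59, YDL124W, a reductase gene, -2.81 and -0.81, YBL029C-A -2.11 and -0.68, and UBX3, of a protein with a ubiquitin regulatory domain, -2.01 and -0.77. PGM2, described above, is the fifth. In each of them E and G lay below A to C in both strains.

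**Figure D2:**
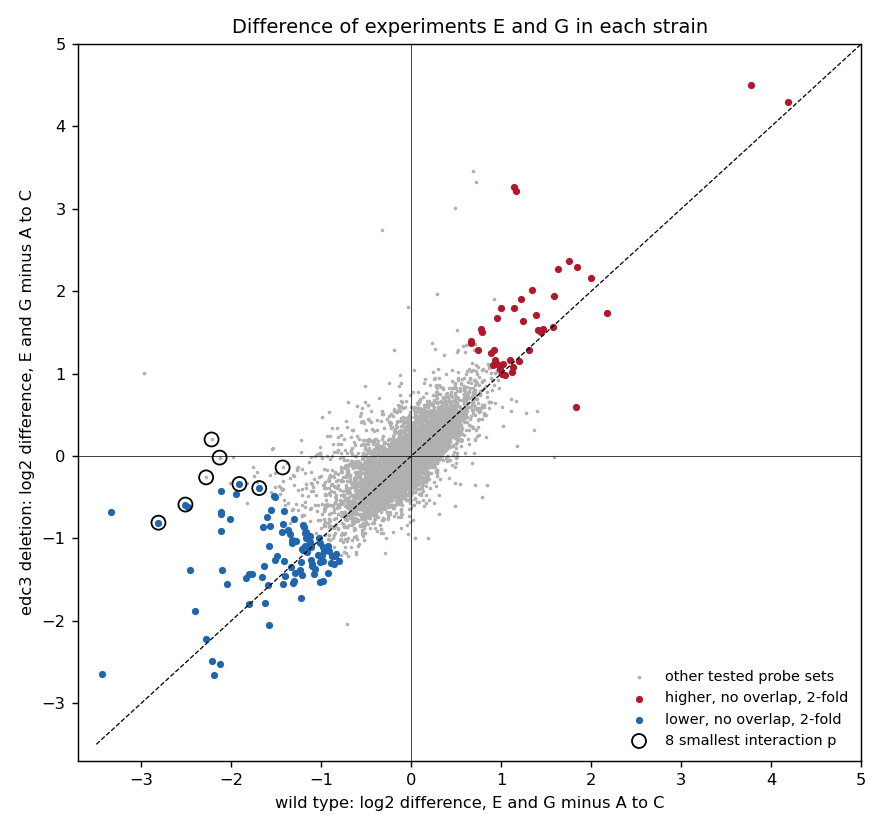
Log2 difference of experiments E and G from A to C in the wild type (x axis) and in the edc3 deletion (y axis) for the 6492 tested probe sets; red and blue points are the 41 higher and 102 lower separated probe sets, open circles the 8 probe sets with the smallest interaction p and the dashed line marks equal differences. Most points follow the line, the 2 PRM7 probe sets lie at the upper right, and the circled points lie above the line at wild-type values between -2.81 and -1.43.

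Over all tested probe sets, the differences of the wild type and of the deletion strain correlated at r = 0.743. This correlation is across probe sets, which are not independent, and the strains share experiments, so it is a description only. The SD of the averaged differences across probe sets was 0.40. The SD between experiments A, B and C of a single probe set had a median of 0.15. These are different measures, and the first belongs to a split chosen from these signals.

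By function, the factors that build ribosomes had the largest share of members above A to C without overlap among the 49 lists. Of 128 measured ribosome biogenesis genes, 121 had a higher mean signal in E and G and 87 lay above A to C without overlap in either strain (68%), against 11.8% of all genes. None lay below without overlap, against 23.4% of all genes. The list's median deviation from the A to C mean of the same strain was 0.34 in wild-type E, 0.34 in wild-type G, 0.42 in the deletion strain's E and 0.46 in its G, while the 6 arrays of A to C ranged from -0.06 to 0.06. CGR1, which acts in ribosomal RNA processing, read 89.6 to 118.1 against 187.8, 195, 209.4 and 210.9, and was the only member to reach 2-fold by the brightest probe set of each gene. IPI1, part of a complex of large subunit maturation, differed by 0.95 ± 0.14, RPF1, another large subunit factor, by 0.86 ± 0.05, and the nucleolar protein gene NSR1 by 0.85 ± 0.24.

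The ribosomal proteins themselves shifted less and not evenly between E and G. The 47 large subunit genes had a median of 0.19 with 5 above and 2 below without overlap. Under the alternative settings that median ran from 0.01 to 0.28. Of all genes, 11.8% lay above and 23.4% below, so the share of large subunit genes above was close to that of all genes. The median deviation of these 47 was 0.24 in both E arrays but 0.10 and 0.03 in the G arrays, inside the A to C range of -0.07 to 0.11. The 33 small subunit genes had a median of 0.16, which became -0.01 after quantile normalization. For these genes the E and G arrays do not stand apart from A to C as a group. Aminoacyl-tRNA synthetases (21 genes) had a median of 0.17 with 7 above and 1 below. RNA polymerase I and III genes (36) had a median of 0.09 with 10 above and 1 below, led by RRN11, a polymerase I initiation factor gene, at 0.99 ± 0.12.

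Stress and storage genes formed the opposite pole. Of the 53 measured genes of the environmental stress response, 47 had a lower mean signal in E and G, as did 3099 of all 5058 genes. Below A to C without overlap lay 40, against 23.4% of all genes. Of all 53 genes, 16 were both below without overlap and at least 2-fold lower, against 1.57% of all tested probe sets. Beyond PGM2, GPH1, DDR2 and HSP12, the list held RTN2, a reticulon gene, at -1.80 ± 0.20. The median deviation of the list was -0.56 and -0.63 in wild-type E and G and -0.75 and -0.76 in those of the deletion strain, against -0.06 to 0.10 in A to C. Every one of the 19 trehalose and glycogen genes had a lower mean signal, 15 without overlap: both the genes that make the stores, such as glycogen synthase GSY1 (-1.18 ± 0.30), and those that break them down, such as glycogen phosphorylase GPH1 (-1.74 ± 0.03), were lower. GAC1, a phosphatase subunit that activates glycogen synthase, differed by -1.60 ± 0.31. Synthesis and breakdown genes were thus on the same side in these arrays.

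Heat-shock chaperones (29 genes, median -0.24) were divided. HSP42, a small heat-shock protein gene, read 181.8 to 309.8 against 93.5 to 143.1, and HSP78, the mitochondrial disaggregase, 100 to 131.2 against 50.4 to 57.7. CUR1, a sorting factor for misfolded proteins, differed by -1.66 ± 0.12. In all 13 members were below and 2 above without overlap, against 23.4% and 11.8% of all genes, and the upper quartile of the list was 0.11. Among 32 antioxidant genes 12 were below (37.5%) and 1 above, led by the glutathione peroxidase gene GPX1 (-1.11 ± 0.33) and the cytosolic catalase gene CTT1 (-1.05 ± 0.02). HSP42, HSP78 and CTT1 are also members of the environmental stress list. RPN4, the transcription activator of proteasome genes, read 214.7 to 300 against 100.7 to 149.4, and the 38 proteasome genes had a median of -0.17 with 12 below (31.6%) and 1 above, close to the 23.4% and the median of -0.09 over all genes.

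**Figure D3:**
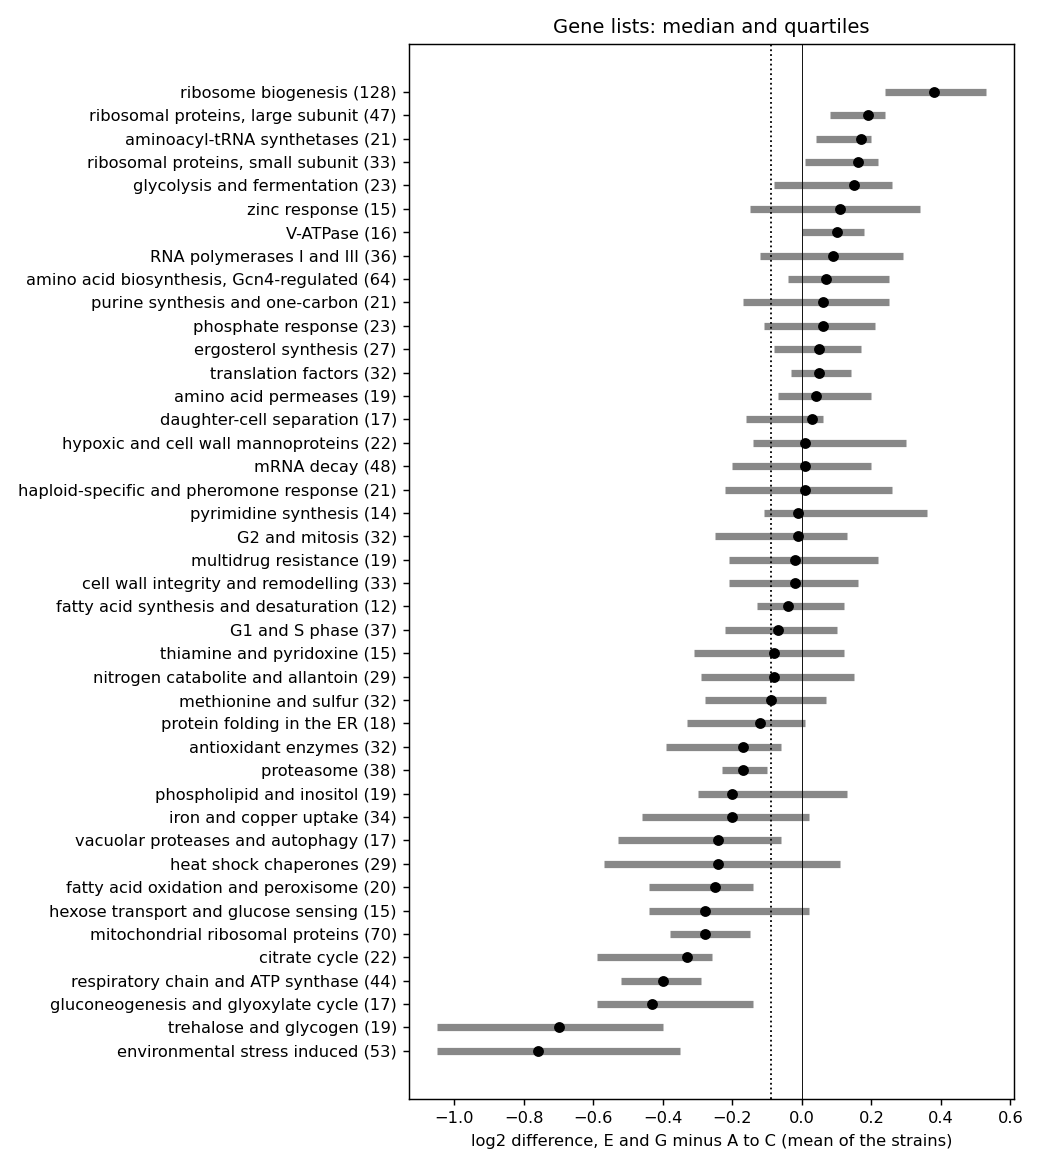
Log2 difference of E and G from A to C, averaged over the strains, for each gene list with at least 12 measured members (number in brackets): points are medians, grey bars run from the lower to the upper quartile, the solid line is 0 and the dotted line the median of all genes, -0.09. Ribosome biogenesis lies highest at 0.38 and the environmental stress list lowest at -0.76.

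Respiratory and mitochondrial genes were lower as well, by less per gene but in most members. Of 44 genes of the respiratory chain, its regulators and the ATP synthase, 42 had a lower mean signal, with a median of -0.40. Without overlap 35 lay below, against 23.4% of all genes. HAP4, the regulatory subunit that activates respiratory genes, read 128.2, 144 and 177.5 as the lowest, median and highest of A to C and 64.9, 68.2, 69.9 and 74.8 in E and G, a log2 difference of -1.09 ± 0.10. The exceptions, HAP1 and HAP5, named after their values were seen, encode transcription factors and not enzymes of the chain. Citrate cycle genes (22) had a median of -0.33 with 14 below and none above. The succinate dehydrogenase gene SDH2 read 899.4 to 1323.7 against 513.7 to 646.1, and the citrate synthase gene CIT1 1244.8 to 1477.8 against 829.4 to 860. Both were clear of the A to C range. The 70 mitochondrial ribosomal protein genes had a median of -0.28 with 38 below and 1 above. The 4 measured genes of the mitochondrial genome had a median of -0.09, with none outside the A to C range in both strains.

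Genes of carbon sources other than glucose followed the respiratory genes. The 17 measured genes of gluconeogenesis and the glyoxylate cycle had a median of -0.43 with 10 below and none above without overlap. Of all genes, 23.4% lay below and 11.8% above. MDH2, the cytosolic malate dehydrogenase, differed by -1.10 ± 0.21, and ADR1, the activator of ethanol and fatty acid use, by -0.91 ± 0.02. The maltose transporter genes MAL31 (25.6 to 28.6 against 7.5 to 12.1) and MAL11 (38.7 to 43.5 against 15.9 to 23) were lower. Fatty acid oxidation and peroxisome genes (20) had a median of -0.25 with 8 below and none above. Among genes of glucose itself the members went both ways. HXT1, the low-affinity transporter induced by high glucose, read 680.6 to 758.6 in wild-type A to C against 1226.8 and 1197.7 in wild-type E and G, and 491.7 to 988.9 in the deletion strain against 1079.9 and 1075.8. MTH1, a repressor of transporter genes when glucose is low, read 43.4 to 66.9 against 21.1 to 31.9. HXK1, the hexokinase gene repressed by glucose, read 1448.4 to 1943.1 against 753.6 to 871. So HXT1 was higher while MTH1 and HXK1 were lower. In the list of hexose transport and glucose sensing, MIG3 differed by 1.02 ± 0.53 and MIG2 by -0.63 ± 0.51, each without overlap in either strain. That list had a median of -0.28.

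Glycolysis and fermentation genes (23) had a median of 0.15, which became -0.03 after quantile normalization, and here E and G parted. TDH3, the main glyceraldehyde-3-phosphate dehydrogenase, read 9686.9 and 9664.8 in the E arrays but 6191.4 and 5410.3 in the G arrays, against 4487 to 6269.5 in A to C. The list's median deviation was 0.27 in both E arrays and 0.09 and -0.01 in the G arrays. The G arrays thus overlapped A to C for this list.

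**Figure D4:**
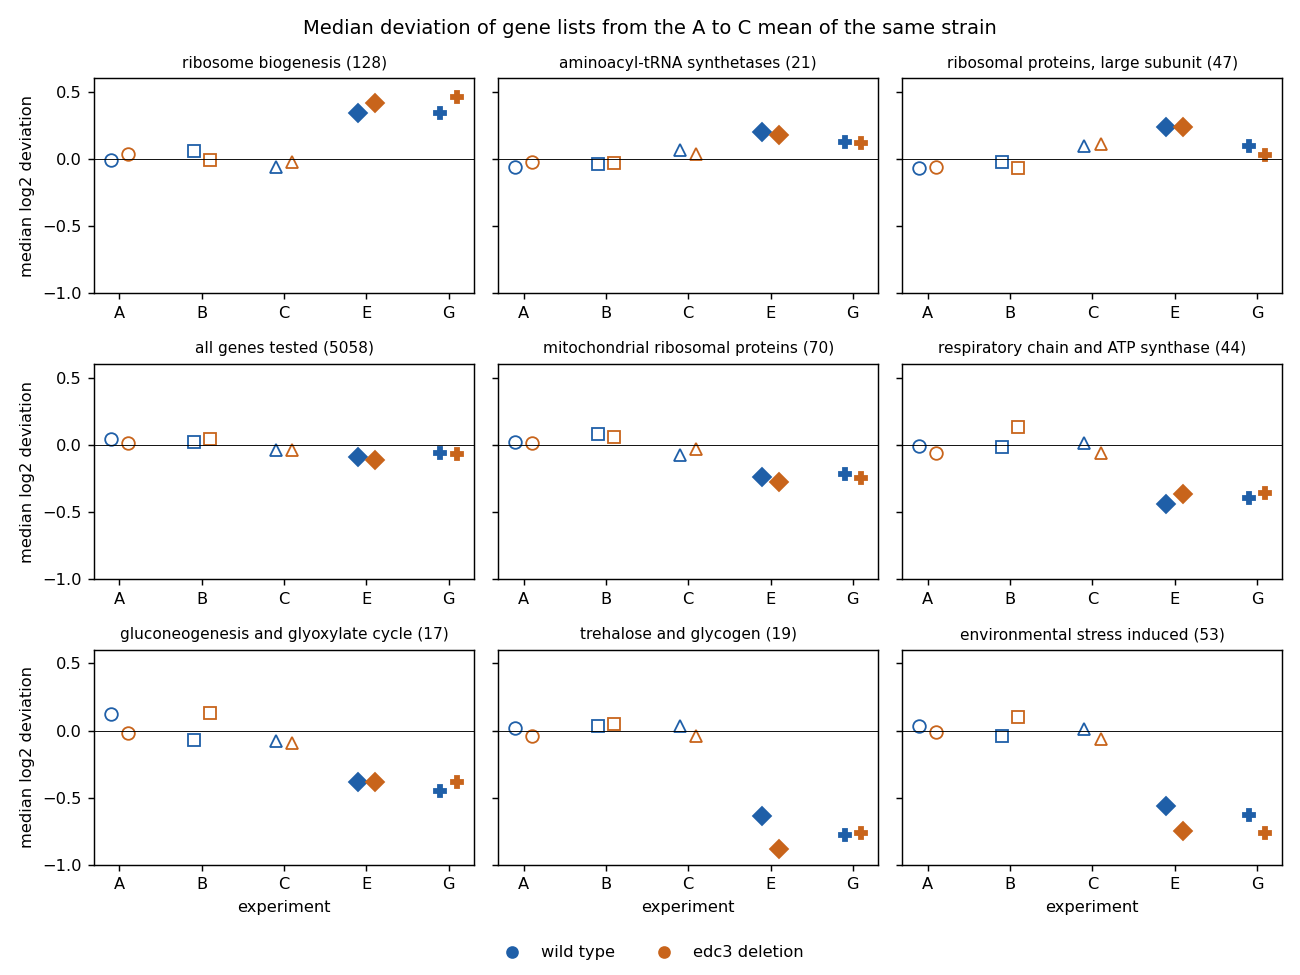
Median log2 deviation of 9 gene groups (number of genes in brackets) from the A to C mean of the same strain, by experiment; each point is 1 array, blue the wild type and orange the edc3 deletion, open symbols A, B and C and filled symbols E and G. Ribosome biogenesis lies at 0.34 to 0.46 in E and G, the environmental stress list at -0.76 to -0.56, and the large subunit proteins of the G arrays fall within the A to C range.

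Many other functions showed no common direction. Medians within 0.1 of 0 were found for G1 and S phase (37 genes, -0.07), G2 and mitosis (32, -0.01), ergosterol synthesis (27, 0.05), translation factors (32, 0.05), cell wall integrity (33, -0.02), mRNA decay (48, 0.01), methionine and sulfur (32, -0.09) and nitrogen catabolite genes (29, -0.08). The G1 and S phase median became 0.01 after quantile normalization and 0.02 after median centring. Within iron and copper uptake (34 genes, median -0.20) 13 genes were below and 2 above without overlap, against 23.4% and 11.8% of all genes. There the siderophore transporter gene SIT1 differed by -1.16 ± 0.31 and the multicopper oxidase gene FET3 by -0.79 ± 0.08. Of the 29 higher separated genes 5 were in a list, and of the 86 lower ones 39.

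Transfer RNA probe sets stood out among RNA classes. Of 69 tested, 62 had a higher mean signal in E and G, 25 lay above without overlap, 4 of them at least 2-fold, and none lay below. Of 5298 protein-coding probe sets, 595 lay above without overlap, 25 of them at least 2-fold, and 1223 below. The median of the transfer RNA probe sets was 0.37. It was -0.09 for the protein-coding ones and -0.12 for 33 small nucleolar RNA probe sets, of which 3 were separated downwards. Copies of a tRNA gene are nearly identical and tRNAs have no poly(A) tail, so these signals cannot be assigned to 1 gene and come from RNA that the labelling method does not select.

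The differences were not spread evenly over signal levels or chromosomes. With the probe sets split into 4 equal classes of mean signal, the median difference was -0.13 in the lowest class, -0.10 and -0.09 in the middle ones and 0.04 in the highest. Among the 16 nuclear chromosomes the medians ran from -0.25 for chromosome X, where 125 of 305 genes lay below without overlap and 15 above, to 0.05 for chromosome IX. Chromosome VIII was at 0.04, with 56 of 222 genes above and 30 below. The arrays of A to C also differed along this axis, chromosome X having a median deviation of 0.22 in wild-type A and -0.10 in the deletion strain's C. The part of signal level and chromosome in the list differences was not tested.

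Experiments E and G were closer to each other than any other pair. Of 2653 probe sets with a mean signal over 200, 1 differed 2-fold or more between E and G in the wild type and 4 in the deletion strain, against 7 to 46 for pairs among A, B and C and 41 to 104 for pairs of one of A to C with E or G. Of 4 Bacillus control transcripts, ThrX-3 was lower in the deletion array by 0.45 log2 units in E and by 0.40 in G, against differences of -0.17, -0.07 and 0.08 in A, B and C, and PheX-3 was lower by 0.38 and 0.40 against -0.16, -0.08 and -0.10. LysX-3 differed by -0.12 and -0.20 in E and G against -0.07, 0.00 and -0.01, and DapX-3 by -0.27 and -0.22 against -0.29, -0.01 and -0.29, so that DapX-3 did not set E and G apart. The labels call E and G biological replicates 4 and 5. Separate cultures and 1 RNA put on 2 sets of arrays cannot be told apart with these files, so E and G are counted as 1 experiment per strain wherever a test is made. With E alone 46 probe sets were higher and 126 lower, and with G alone 49 and 97.

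The one comparison that the choice of arrays does not fix is whether the difference was alike in the strains. It was tested as the strain-by-culture interaction with limma, E and G averaged within each strain, so that the single averaged value of a strain is assumed to vary like its A to C arrays. No probe set had an adjusted p under 0.05 (0% of 6492), and 129 had an unadjusted p under 0.05. With the experiment as a block, which the shared letters and the correlation of same-lettered arrays warrant, limma called 11 (0.169%). In all 11 the log2 difference of E and G from A to C was higher in the deletion strain than in the wild type. This sign does not require low wild-type signals. A probe set paired with no single gene, also among the 11, had differences of 0.72 in the wild type and 3.32 in the deletion strain. The named 8 probe sets of smallest p were all among the 11. Where E and G counted as separate replicates, 41 were called, and with G left out, 2.

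In each of the 8, both wild-type E and G arrays lay below all other arrays. The deletion strain's E and G also lay below its own A to C arrays in 5 of the 8 (SPG5, YDL124W, MRPS9, FZO1 and FMP42), by less, and overlapped them in PAT1, CLB3 and ERG29. PAT1, which encodes an activator of mRNA decapping, read 34.9 and 48.1 in wild-type E and G and 145.9 to 236.3 in the other 8 arrays, an interaction of 2.42 ± 0.42 log2 units (SE) with limma adjusted p = 0.287 and, with the block, 0.00985. CLB3, a B-type cyclin gene, read 48.9 and 51 against 160.5 to 246.7, an interaction of 2.02 ± 0.24 with limma adjusted p = 0.0625 and, with the block, 0.0153. ERG29, of sterol synthesis, read 16.1 and 22.2 against 65.9 to 85.5, an interaction of 2.11 ± 0.28 with adjusted p = 0.106 and, with the block, 0.0293 by limma. Of the 5 that were lower in both strains, FZO1, of mitochondrial fusion, read 35.7 and 36.6 in wild-type E and G, 107.7 and 107 in those of the deletion strain and 124.7 to 144.5 in the deletion strain's A to C. MRPS9, a mitochondrial ribosomal protein gene, read 78.5 and 110.7, 236.5 and 267.2, and 311.4 to 342.4 in the same order. FMP42 read 221.3 and 241.5 in wild-type E and G against 545.8 to 665.6 in the other arrays. MRPS9, FZO1, SPG5 and YDL124W also count among the 102 lower probe sets, by the size of their wild-type difference.

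**Figure D5:**
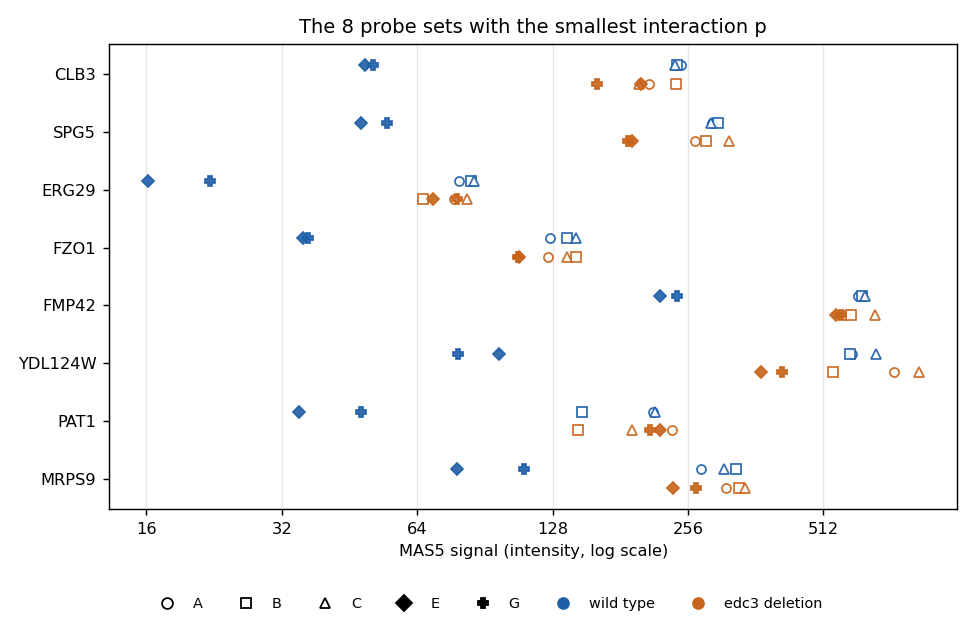
MAS5 signal on a log axis in each array for the 8 probe sets with the smallest interaction p; open symbols are A, B and C, filled symbols E and G, blue the wild type and orange the edc3 deletion. The filled blue symbols lie apart at the left of every row; for CLB3 they are at 48.9 and 51 and all others between 160.5 and 246.7.

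The pattern reached beyond these 8. A rule set after the values were seen asked for E and G below A to C without overlap and at least 2-fold lower in 1 strain. In the other strain it asked for a log2 difference above -0.5. With the wild type as the lower strain 46 probe sets of 45 genes met it, and with the deletion strain as the lower none did. The rule allows a smaller decrease in the other strain: MRPS9 (-0.39) and FZO1 (-0.34) also lay below A to C in the deletion strain. Another 48 gene-paired probe sets were at least 2-fold lower without overlap in each strain. The 46 are 0.85% of the gene-paired probe sets tested, with 9 on chromosome II (of 370 tested), 6 on III (of 147), 6 on IV (of 701), 7 on XIII (of 430), 5 on XIV (of 347) and 8 on XVI (of 418), and none on VI (of 105), VII (of 520), VIII (of 233), IX (of 187), XI (of 311) or XII (of 488). Among them, 5 pairs carry consecutive locus numbers, such as MRPS9 with RTC2 and ERG29 with GID8. SCD6, another gene of mRNA decapping control, was among them with differences of -1.27 and -0.17, and so was SUP35, the translation termination factor eRF3, with -1.03 and 0.02.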

How the data were processed

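The authors deposited one MAS5 signal intensity per probe set for each of the 10 arrays; MAS5 is named without a version in the submitters' processing notes, and the 2% trimmed means of the arrays differ by 0.0186% at most. Signals were used as deposited and converted to log2; the 156 signals of 0 were raised to 0.1, and none was among the 6492 probe sets kept after the dimmest 30% had been left out. Precision is limited by the number of arrays, and the table holds no detection calls. Genes were named through the platform annotation and RefSeq's R64 gene table (6504 probe sets with 1 gene, 328 with several, 2443 with none, which are unnamed here); for lists, the brightest probe set stood for a gene, and 11 list names had no match. No coordinates or sequences are printed.

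The members, the 49 gene lists and the tests were chosen with earlier results of these data known. Genes were named by rule: among separated probe sets with 1 gene and a mean signal of at least 100 on the brighter side, the 15 largest differences each way, judged by the brightest probe set of a gene; up to 4 genes per list with the largest difference; and the 8 probe sets of smallest interaction p. The interaction was fitted with limma 3.58.1 in R 4.3.3 (lmFit, eBayes with trend, Benjamini-Hochberg adjustment, two-sided). The main fit has 4 residual degrees of freedom and the fit with the block 2. The scripts (Python 3.11.15, pandas 2.3.3, numpy 2.4.6) were tested on simulated data. Deviations of same-lettered arrays of the strains correlated at 0.574, 0.589 and 0.476 across probe sets in A, B and C, which with the shared letters was taken as pairing. The labels call the arrays biological replicates but do not say that each came from its own culture. Errors therefore measure the spread between arrays, which may be technical. Alternatives were other folds, filters, normalizations, an offset of 32, each experiment left out, E or G alone and each strain alone; a 2-fold rule in each strain was added after seeing the data.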

Additional observations from a re-analysis of the deposited data

Results flagged for a closer look

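The difference of experiments E and G from A to C differed between the strains for 8 named probe sets, when limma's interaction was fitted with the experiment as a block; without the block none had an adjusted p under 0.05, and 129 of 6492 had an unadjusted p under 0.05. The deletion strain's log2 difference exceeded that of the wild type by 2.42 for PAT1, 2.11 for ERG29, 2.02 for CLB3, 2.00 for YDL124W, 1.91 for SPG5, 1.58 for FZO1, 1.31 for MRPS9 and 1.29 for FMP42. In each case both wild-type E and G arrays lay below all other 8 arrays. Since E and G may be 1 RNA hybridised again, both arrays may carry the same single measurement, and the cause was not tested.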

How the results depend on the processing

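Among probe sets separated upwards (41 in the values reported), a 1.5-fold rule gave 203, a 4-fold rule 7, no filter on dim probe sets 65, leaving out the dimmest 50% 22, quantile normalization 63, median centring 64, an offset of 32 gave 21, the edc3 deletion alone 80, and 2-fold in each strain 26. Among those separated downwards (102), the 1.5-fold rule gave 408, the 4-fold rule 7, no filter 205, the dimmest 50% left out 54, the offset 23, the wild type alone 170 and 2-fold in each strain 57. Leaving out experiment A, B or C gave 50 to 52 higher and 93 to 131 lower. The interaction, with 0 calls, gave 11 with the replicate block, 41 with E and G as separate replicates, 128 with both, and 0 to 2 with 1 experiment left out. Values larger than the SD of A to C that changed sign were COX1 (0.02), PAT1 (0.20) and SUP35 (0.02) in the edc3 deletion alone, RPS21A (-0.06) and RPS21B (-0.07) under quantile normalization, and list medians of small subunit proteins (-0.01), glycolysis (-0.03), G1 and S phase (0.01) and histones (0.00) under quantile normalization, of G1 and S phase (0.02) and histones (0.04) under median centring, and of G1 and S phase with experiment A left out (0.01; -0.14 with C left out). Counting smaller values too, 19 of the 49 lists changed sign under some alternative, 16 of them with medians within 0.1 of 0. Of 2110 recomputed gene differences, 1750 moved by less than the SD of A to C and 5 changed sign beyond it; of 539 recomputed list medians the numbers were 381 and 7. The dimmest of 4 equal signal classes holds 42 of the 102 lower probe sets, and no detection calls bound them.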
